A study of Mus musculus with 6 samples.

Results

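Cathepsins are the main protein-digesting enzymes of the lysosome, and 10 of their genes, *Ctsa*, *Ctsb*, *Ctsc*, *Ctsd*, *Ctse*, *Ctsh*, *Ctsk*, *Ctsl*, *Ctss*, and *Ctsz*, were compared between chronic stroke infarcts and the cortex of the other hemisphere. The genes were taken by symbol from the 46078 genes in the count tables, without a threshold on their values but with earlier results of these data known. All 10 were upregulated in infarcts, as were 25.7% of all 15554 tested genes. Each region gave 3 RNA-Seq libraries, from wild-type mice on the C57BL/6J background. Both regions share the genotype, the age of 3 months, and the sampling time of 7 weeks after a stroke made by distal middle cerebral artery occlusion with hypoxia (DH stroke). The study used male mice. The contralateral cortex is thus tissue of animals that also had a stroke, and no cortex of unoperated mice was analyzed here. The labels number the libraries 1 to 3 in each region but do not say which infarct and which cortex came from 1 mouse, whether each library came from a separate mouse, or whether the mice had received a vehicle. The p values therefore measure the spread between these libraries, which may be technical.

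Cathepsins are made as inactive proenzymes, carried to the lysosome largely by receptors for mannose 6-phosphate, and activated there by cleavage at acid pH. Their classes differ in the catalytic residue. *Ctsd* and *Ctse* are aspartic proteases, *Ctsa* is a serine carboxypeptidase, and the remaining members are cysteine proteases that the cystatins inhibit. Microglia and macrophages are rich in them, and they use them to digest engulfed material, to prepare antigens for MHC class II, and, once secreted, to degrade extracellular matrix.

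Short stretches of member promoters are shown because 2 kinds of sequence linked with lysosomal and phagocyte genes were found in them. Promoters of 7 members (8 start sites, 250 bases before to 50 after each start) were in the set of RefSeq promoters used here (GRCm38.p6). That set held none for *Ctsb*, *Ctse*, and *Ctsh*, whose promoters were therefore not searched. The letters CACGTG, the core of the sites that TFEB-type factors bind, were found in *Ctsa*, *Ctsd*, and *Ctsl*. They read the same on both strands and were in 7.15% of all 32851 promoters, or in a promoter of 8.09% of 27025 genes. The CLEAR element, a longer and rarer form of this site with CACGTG at its center, was also searched. Its full string of letters, searched without any mismatch, was found in no member promoter and in 0.33% of all promoters. Sites that differ from it in a letter were not searched for, so the search cannot tell whether members hold them. The letters GAGGAAGT, one form of the site of the myeloid factor PU.1, or ACTTCCTC on the other strand, were found in *Ctsc* and *Ctss*. They were in 3.20% of promoters, or in a promoter of 3.69% of genes. Capitals mark these letters below, and the position after each gene is that of their first base from the RefSeq start.
*Ctsd*, position -245, chr7:142388056-142388077, minus strand: tccccCACGTGacctgtatcca
*Ctsd*, position -98, chr7:142387909-142387936, minus strand: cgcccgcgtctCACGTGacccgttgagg
*Ctsa*, position -12 of its second start, chr2:164833750-164833777, plus strand: gagcaaactgtCACGTGatgcagatgct
*Ctsl*, position -236, chr13:64370740-64370767, minus strand: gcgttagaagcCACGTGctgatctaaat
*Ctss*, position -2, chr3:95526773-95526795, plus strand: aatgaaagttcACTTCCTCattg
*Ctsc*, position -151, chr7:88277923-88277952, plus strand: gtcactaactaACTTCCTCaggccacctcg

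The members lie on 7 chromosomes of GRCm38 (GENCODE release M21 coordinates). On the plus strand are *Ctse* (chr1:131638306-131675505), *Ctsa* (chr2:164832873-164841032), *Ctsc* (chr7:88278085-88310888), *Ctsh* (chr9:90054152-90076089), and *Ctsb* (chr14:63122462-63145923), besides *Ctsk* and *Ctss* on chromosome 3. On the minus strand are *Ctsz* (chr2:174427493-174439039), *Ctsd* (chr7:142375911-142388038), and *Ctsl* (chr13:64359337-64370890). The windows above lie at or inside the annotated gene starts except that of *Ctsc* and the first of *Ctsd*, which lie upstream. *Ctsa* held a further CACGTG at position 6 after its second start. The letters TGACTCA or TGAGTCA, an AP-1 site, were in no member window and in 5.20% of promoters, and TCATGTG or CACATGA, a site of MITF-type factors, were in *Ctsa* and *Ctss* and in 3.77% of promoters. None of these letters was found in the windows of *Ctsk* and *Ctsz*. The matches describe letters only, and binding was not measured here.

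Counts on genes totaled 12146959 to 13427057 in infarcts and 11943570 to 19933962 in contralateral cortices. Of 15554 genes tested, 3999 (25.7%) were upregulated and 3256 (20.9%) were downregulated in infarcts, at an adjusted p under 0.05 and a log2 fold change beyond 1 (quasi-likelihood test of edgeR, Benjamini-Hochberg adjusted over all tested genes). The median log2 fold change of all tested genes was 0.03, and it was higher by 0.20 with library totals as the only scaling. The makeup of the tissue differed between the regions. All 9 monocyte and macrophage markers and all 8 markers of lipid-laden phagocytes were upregulated, with summed expression of 5677 to 9344 and 8448 to 9928 CPM (counts scaled to library size with edgeR's TMM method) in infarcts, compared with 69.6 to 84.5 and 119 to 177 in contralateral cortices. Of 8 microglial markers, 4 were upregulated (913 to 942 compared with 299 to 347 CPM). The 7 fibroblast markers were all upregulated (7794 to 9614 compared with 212 to 278 CPM), and the 8 neuronal markers were all downregulated (481 to 1259 compared with 7234 to 8477 CPM). Of 8 neutrophil markers, 3 had enough counts to be tested, and all 3 were upregulated. The 8 summed to 10.2 to 13.9 CPM in infarcts compared with 0.104 to 0.923 CPM contralaterally, with *Elane* at 0 counts in every library. In bulk tissue, a change in the number of cells of a type and a change in RNA per cell cannot be told apart, and the part of these cell types in the results below was not tested.

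All 10 cathepsin genes passed the filter on low counts, and all 10 were upregulated, read against 25.7% of all tested genes. The lowest infarct library was above the highest contralateral library for each of them, which held for 37.6% of tested genes. The median log2 fold change of the family was 4.68, or 4.55 with *Ctse*, which had 0 counts contralaterally, set at its lower bound. Together the 10 genes took 1.70%, 1.60%, and 1.56% of all gene counts in infarcts 1, 2, and 3, compared with 0.0797%, 0.0682%, and 0.0902% in contralateral libraries 1, 2, and 3. The 95% Wilson intervals of these shares, which cover counting error only, ran from 1.55% to 1.71% over the infarcts and from 0.0670% to 0.0919% over the contralateral cortices. Summed expression averaged 15122 ± 1169 CPM in infarcts and 854 ± 130 CPM contralaterally (SD, n = 3 each), a ratio of 17.7.

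**Figure D1:**
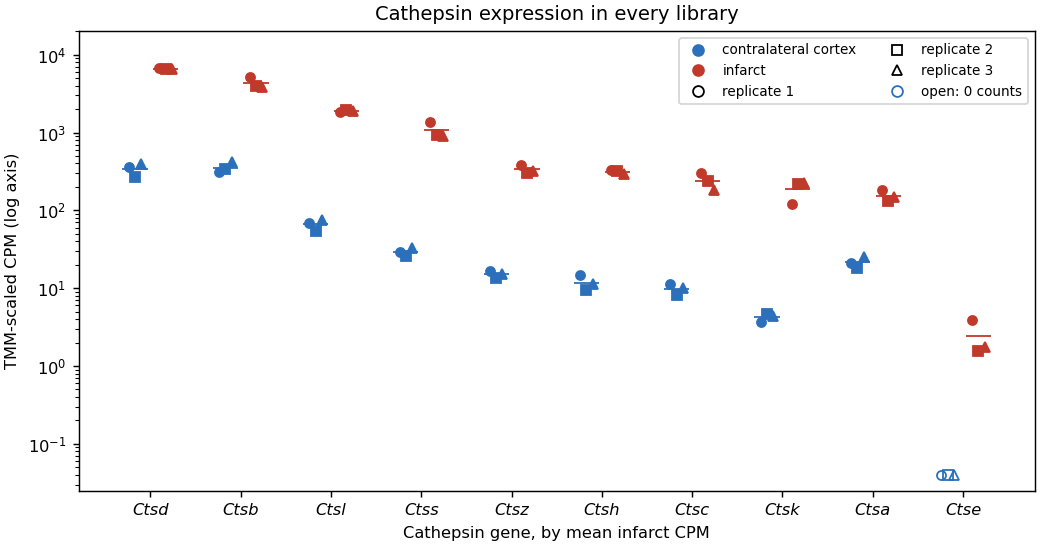
Expression of each cathepsin gene in the 3 infarct (red) and 3 contralateral (blue) libraries as TMM-scaled CPM on a log axis, with the horizontal bars at the region means and symbols for replicates. For every gene the infarct libraries sit above the contralateral ones, from 6476 to 6818 against 269 to 398 CPM for Ctsd down to 1.54 to 3.90 CPM for Ctse, whose contralateral libraries hold 0 counts (open symbols, drawn at the bottom of the axis).

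The aspartic protease *Ctsd*, the major endoprotease of the lysosome, had the highest expression of the family in infarcts. Its expression was 6818, 6528, and 6476 CPM in infarcts 1, 2, and 3 and 358, 269, and 398 CPM in contralateral libraries 1, 2, and 3. The infarcts differed by little and lay far above every contralateral library. The log2 fold change was 4.27 (SE 0.22, 95% interval 3.77 to 4.78, adjusted p = 3.93e-07, edgeR). *Ctse*, an aspartic protease of endosomes in immune and epithelial cells, was the rarest member, with 49, 21, and 26 counts in infarcts and 0 counts in each contralateral library. Taking 3 counts per contralateral library as the most that 0 allows, the infarct expression of *Ctse* was at least 11.5-fold higher (adjusted p = 3.00e-04, edgeR). The coding sequences of *Ctsd* and *Ctse* are 57.4% identical. No stretch of 75 bases of their transcripts occurs in an annotated transcript of another locus. Sequence outside annotated transcripts was not searched. The annotation draws a further gene, Gm49369, over 34.4% of the exons of *Ctsd* on the same strand, but it has no row in the count tables.

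Of the cysteine proteases with broad tissue expression, *Ctsb* was expressed at 5128, 4005, and 3838 CPM in infarcts and at 307, 336, and 422 CPM contralaterally. *Ctsl*, an endopeptidase that also degrades the invariant chain in some cells, was expressed at 1809, 1974, and 1884 CPM in infarcts and at 68.0, 53.6, and 76.0 CPM contralaterally. Both pairs of groups were free of overlap, and *Ctsb* had the higher contralateral expression and the smaller change. The log2 fold change was 3.61 for *Ctsb* (SE 0.22, interval 3.11 to 4.11, adjusted p = 8.59e-07) and 4.84 for *Ctsl* (SE 0.21, interval 4.38 to 5.31, adjusted p = 1.77e-07), with intervals that did not meet. Counts of *Ctsl* per 100 counts of *Ctsb*, a ratio within a library that scaling cannot move, were 35.3, 49.3, and 49.1 in infarcts and 22.1, 16.0, and 18.0 contralaterally. This pair was chosen after its values were seen, and the ratio carries no test. Exons of *Ctsb* overlap those of *Fdft1* on the other strand over 12.8% of their length, and *Fdft1*, a cholesterol synthesis enzyme, held 139, 139, and 210 counts in infarcts and 803, 486, and 550 contralaterally. *Fdft1* was thus lower where *Ctsb* was higher.

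*Ctss*, a protease of antigen-presenting cells that removes the invariant chain from MHC class II and stays active at neutral pH, was expressed at 1371, 931, and 890.3 CPM in infarcts and at 29.3, 26.1, and 32.5 CPM contralaterally. Its log2 fold change of 5.18 (SE 0.24, adjusted p = 2.29e-07) was exceeded by 3.46% of tested genes. *Ctsk*, a strong collagenase and the main matrix protease of osteoclasts, was expressed at 120.0, 219, and 225 CPM in infarcts and at 3.71, 4.62, and 4.43 CPM contralaterally. Its log2 fold change of 5.47 (SE 0.29, adjusted p = 4.79e-07) was the largest of the members counted in both regions, and 3.09% of tested genes exceeded it. The pair lies side by side on chromosome 3, on the plus strand, with *Ctsk* at chr3:95499256-95509362 and *Ctss* at chr3:95526786-95556403 (GRCm38, GENCODE release M21). They are 17423 bases apart with no annotated gene between them, and their coding sequences are 60.3% identical. No 75-base stretch of their transcripts occurs in an annotated transcript of another locus.

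The pair had opposite orders over the infarcts. Infarct 1 had the highest *Ctss* and the lowest *Ctsk*, so that *Ctsk* counts per 100 *Ctss* counts were 8.75, 23.5, and 25.2 in infarcts 1, 2, and 3, around the contralateral values of 12.7, 17.7, and 13.6. Without infarct 1 the log2 fold change of *Ctsk* was 5.73, and it stayed called. Infarct 1 also had the highest summed T and natural killer cell markers (126, 52.6, and 33.0 CPM) and B cell markers (295, 140.1, and 117 CPM). The same order held for the summed markers of monocytes and macrophages (9344, 8074, and 5677 CPM), lipid-laden phagocytes (9928, 9241, and 8448 CPM), dendritic cells (477, 339.7, and 303 CPM), and plasma cells (3989.7, 2023, and 557 CPM). Osteoclast (194, 167, and 142 CPM), microglial (942, 915, and 913 CPM), and endothelial markers (490, 402, and 370 CPM) also fell from infarct 1 to infarct 3. The fibroblast markers, at 9178, 9614, and 7794 CPM, had another order. Markers of neurons (481, 660, and 1259 CPM), oligodendrocytes (4349, 5009, and 6986 CPM), and astrocytes (5409, 5785, and 7838 CPM) rose from infarct 1 to infarct 3, as *Ctsk* did. With 3 infarcts these are descriptions, and no relation was tested.

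**Figure D2:**
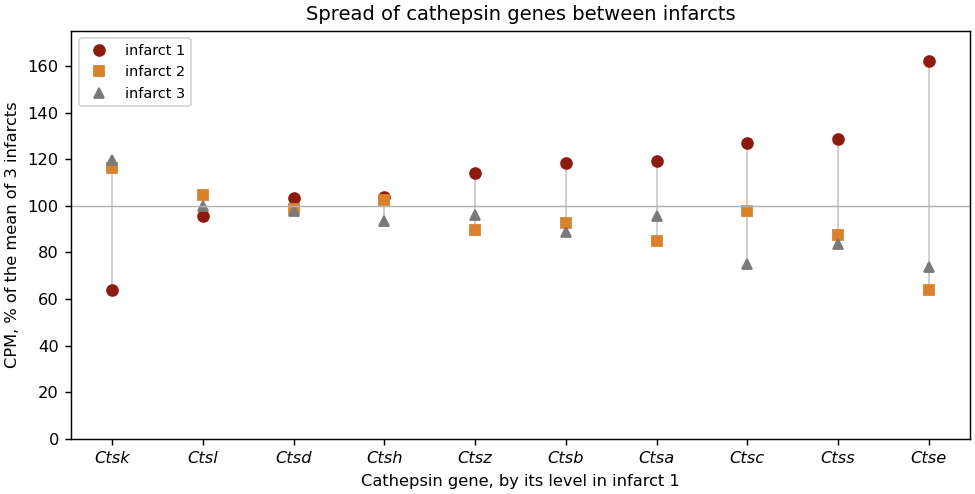
CPM of each cathepsin gene in infarcts 1, 2, and 3 as a percentage of the mean of the 3 infarcts, with genes ordered by infarct 1. Ctsd and Ctsl stay between 95.8% and 104% in all 3 infarcts, Ctsk is at 63.9% in infarct 1, and Ctss, Ctsc, and Ctse are at 127% to 162% there.

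Among the cysteine proteases that act as exopeptidases, *Ctsc*, also called dipeptidyl peptidase I and known for activating granule proteases of lymphocytes and neutrophils, was expressed at 306, 235, and 180.5 CPM in infarcts and at 11.2, 8.07, and 9.97 CPM contralaterally. *Ctsh*, an aminopeptidase, was expressed at 327, 322, and 295 CPM in infarcts and at 14.7, 9.44, and 11.3 CPM contralaterally. *Ctsz*, a carboxypeptidase also called cathepsin X, was expressed at 386, 302, and 325 CPM in infarcts and at 16.6, 13.4, and 15.1 CPM contralaterally. The 3 genes had similar changes, with log2 fold changes of 4.62 (SE 0.24) for *Ctsc*, 4.73 (SE 0.20) for *Ctsh*, and 4.49 (SE 0.18) for *Ctsz*, and adjusted p of 3.94e-07, 1.77e-07, and 1.64e-07 (edgeR). Their intervals overlapped, from 4.08 to 5.17, from 4.28 to 5.19, and from 4.09 to 4.89. The infarcts differed most for *Ctsc*, whose highest library was 1.70 times its lowest, and least for *Ctsh*, at 1.11 times. *Ctsg*, a serine protease of neutrophil and mast cell granules that is a cathepsin by name, had 1, 0, and 1 counts in infarcts and 0 counts contralaterally.

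The serine carboxypeptidase *Ctsa*, which also holds the galactosidase *Glb1* and the sialidase *Neu1* in a lysosomal complex, changed least. It was expressed at 185, 131, and 148 CPM in infarcts and at 21, 17.9, and 25.4 CPM contralaterally. The groups did not overlap, and the log2 fold change was 2.85 (SE 0.19, interval 2.42 to 3.29, adjusted p = 1.48e-06, edgeR). Its interval met that of *Ctsb* and lay below those of the other members. Its partner *Glb1* was upregulated less (log2 fold change 1.62), and *Neu1* was expressed at 49.6, 61.7, and 55.4 CPM in infarcts and at 53.6, 53.1, and 49.0 CPM contralaterally (log2 fold change 0.10, adjusted p = 0.573), so the fold changes of the 3 genes of the complex were unlike. Exons of *Pltp* and *Neurl2* on the other strand cover 17.4% of the exons of *Ctsa*, and *Pltp*, a lipid transfer protein, held 4545 to 6076 counts in infarcts and 451 to 629 contralaterally. The strand setting of the counting is not given in the sources used here. If strand was not used, reads in the overlap could not be told apart.

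**Figure D3:**
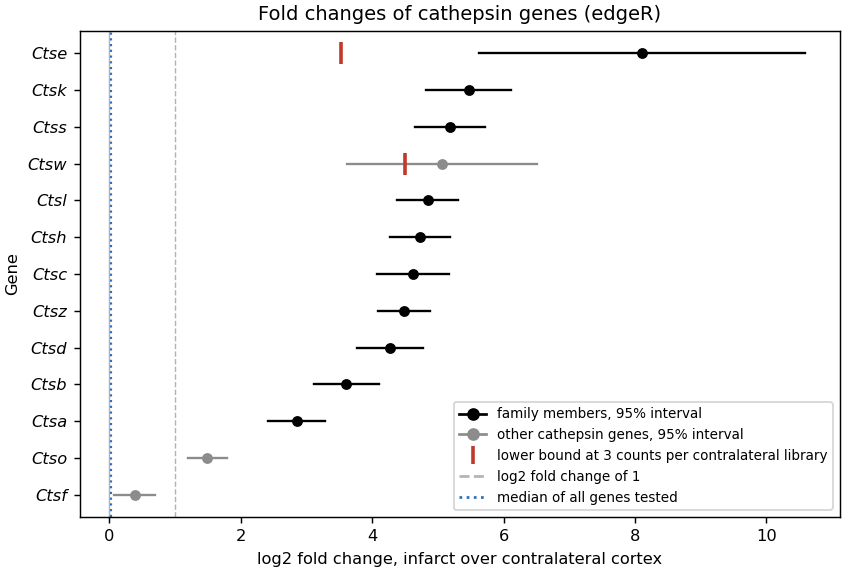
Log2 fold changes of the 10 family members (black) and of the 3 other cathepsin genes that could be tested (gray) with 95% intervals from edgeR. The red marks show genes with 3 counts or fewer in every contralateral library, with each of these libraries set at 3 counts. The 10 members lie from 2.85 for Ctsa to a fitted 8.11 for Ctse, whose bound is 11.5-fold, and the dotted line marks the median of all genes, 0.03.

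Levels can be compared between genes only per length. Per kilobase of merged exons, *Ctsd* led in infarcts with 2810.5 ± 78.3 CPM, followed by *Ctss* (784 ± 196), *Ctsb* (715 ± 116), *Ctsl* (291 ± 12.7), *Ctsz* (234 ± 29.8), *Ctsk* (124 ± 38.9), *Ctsh* (69.9 ± 3.85), *Ctsc* (41.4 ± 10.9), *Ctsa* (32.8 ± 5.79), and *Ctse* (0.759 ± 0.410, SD, n = 3). In this order, *Ctss* and *Ctsb* did not differ beyond their spread, nor did *Ctsc* and *Ctsa*. In contralateral cortices *Ctsd* (145 ± 28.1) also led, followed by *Ctsb* (58.6 ± 9.85) and *Ctss* (21.6 ± 2.35), and *Ctsk* (2.81 ± 0.319), *Ctsh* (2.62 ± 0.591), and *Ctsc* (1.68 ± 0.274) were the lowest of the detected members. *Ctsa*, at 4.54 ± 0.796, stood above *Ctsk* and *Ctsh* there and below them in infarcts. Per kilobase of 1 reference transcript instead, *Ctsl* (958 ± 41.8) and *Ctsb* (912 ± 148) had higher infarct means than *Ctss* (785 ± 197), and *Ctsd*, at 3106 ± 86.5, still led. These 3 means did not differ beyond their spread, and in infarct 1 *Ctss* (1012) was above *Ctsl* (918).

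The members took different shares of the family in each region. Of the summed level per kilobase of merged exons, *Ctsd* made up 52.3%, 56.4%, and 56.9% in infarcts and 58.9%, 52.7%, and 56.9% contralaterally, so its share overlapped between the regions. The share of *Ctsb* was 15.3%, 13.4%, and 13.1% in infarcts, below the 19.6%, 25.5%, and 23.4% of contralateral cortices. The share of *Ctss* was 18.2%, 13.9%, and 13.6% in infarcts, above the 8.33%, 8.86%, and 8.04% of contralateral cortices. The shares of *Ctsl* (5.74 ± 0.621% compared with 3.93 ± 0.122%), *Ctsh* (1.37 ± 0.0742% compared with 1.02 ± 0.216%), and *Ctsk* (2.48 ± 0.911% compared with 1.11 ± 0.256%) were also higher in infarcts without overlap, and that of *Ctsa* was lower (0.640 ± 0.0707% compared with 1.76 ± 0.0442%). For *Ctsk* the margin was narrow, with 1.43% in infarct 1 and 1.41% in contralateral cortex 2. The shares of *Ctsc* and *Ctsz* overlapped. The sizes of the shares depend on the length used. With plain counts in place of counts per kilobase, the mean infarct share was 28.5% for *Ctsb*, 6.98% for *Ctss*, 12.6% for *Ctsl*, 2.08% for *Ctsh*, 1.27% for *Ctsk*, and 1.02% for *Ctsa*, and per kilobase of a reference transcript it was 14.9% for *Ctsl* and 3.01% for *Ctsh*. These 6 genes kept their direction without overlap on both scales, and *Ctsz* no longer overlapped with plain counts (2.23 ± 0.146% in infarcts, 1.78 ± 0.242% contralaterally). The shares sum to 100% and are not independent of each other, and no test was run on them, since an exact permutation of 3 against 3 libraries cannot give a p under 0.1.

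**Figure D4:**
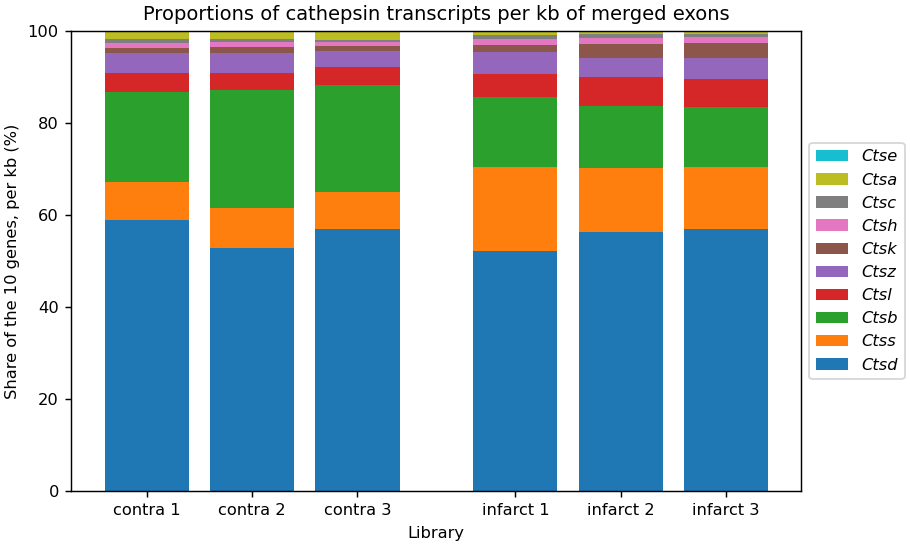
Share of each cathepsin gene in the summed level of the 10 genes, in CPM per kilobase of merged exons, for each contralateral and infarct library, with each bar summing to 100%. Ctsd takes 52.3% to 58.9% in every library, while Ctsb narrows from 19.6% to 25.5% in contralateral cortices to 13.1% to 15.3% in infarcts and Ctss widens from 8.04% to 8.86% to 13.6% to 18.2%.

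The genes closest to the 2 members with the highest infarct level per kilobase were sought among 9675 tested genes with a mean of at least 10 CPM, by the root mean square difference of centered log2(CPM + 1) over the 6 libraries. These members, *Ctsd* and *Ctss*, were ranked per kilobase of merged exons, where *Ctss* did not differ from *Ctsb* beyond its spread, and per kilobase of a reference transcript the mean of *Ctss* was also below that of *Ctsl*. For *Ctsd* they were *Timp1*, an inhibitor of metalloproteinases (0.068), *C1qc*, a chain of complement C1q (0.114), and *Ftl1*, the ferritin light chain (0.121). For *Ctss* they were the tumor necrosis factor receptor gene *Tnfrsf1b* (0.081), *Shisa3* (0.081), and *Ly9*, a receptor of lymphocytes (0.088). The added 1 CPM compresses the change of genes that are rare contralaterally, and the fitted log2 fold changes were 4.90 for *Timp1* and 9.02 for *Ly9*, compared with 4.27 for *Ctsd* and 5.18 for *Ctss*.

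Of 13 other genes that carry a cathepsin name, 3 had enough counts to be tested, and 2 were upregulated. The counts of this and the following lists are to be read against 25.7% of all tested genes upregulated and 20.9% downregulated. *Ctso*, a cysteine protease of wide expression, was expressed at 164, 169, and 145 CPM in infarcts and at 58.6, 56.3, and 55.3 CPM contralaterally (log2 fold change 1.49, SE 0.13, adjusted p = 8.86e-06). *Ctsw*, known from cytotoxic lymphocytes, held 103, 42, and 42 counts in infarcts and 2, 3, and 1 counts contralaterally which makes its infarct expression at least 22.5-fold higher (adjusted p = 8.65e-05). Like *Ctse*, it was highest in infarct 1. *Ctsf*, at 73.9, 69.9, and 77.8 CPM in infarcts and 56.3, 51.9, and 61.9 CPM contralaterally, had a log2 fold change of 0.38 (adjusted p = 0.0327, edgeR), below the fold change threshold. The 9 remaining genes, those of the placental group and *Ctsll3*, had 0 counts in all 6 libraries. *Ctsll3* is the gene most similar to *Ctsl* (69.3% identity of coding sequence), and 0.32% of the 75-base stretches of *Ctsl* occur in annotated transcripts of another locus. Gm47123 and Gm49230, annotated over parts of the exons of *Ctsl*, have no row in the count tables.

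Of 17 genes for cathepsin inhibitors, 11 were tested, 9 were upregulated, and 1 was downregulated, with a median log2 fold change of 3.03. *Cst3*, the secreted cystatin C that is the most abundant cysteine protease inhibitor of the brain, was expressed at 532, 488, and 552 CPM in infarcts and at 267, 249, and 300.1 CPM contralaterally. Its log2 fold change of 0.95 (SE 0.15, adjusted p = 3.77e-04, edgeR) missed the fold change threshold and was 1.15 and called with scaling by library totals. Counts of *Cst3* per 1000 counts of the family were 32.3, 33.3, and 38.7 in infarcts and 322, 338, and 302 contralaterally. Transcripts of the protease family thus rose by more than those of *Cst3*, whichever way libraries are scaled. The family total includes *Ctsd*, *Ctse*, and *Ctsa*, which are not cysteine proteases. The 7 cysteine members alone summed to 7637 to 9446 CPM in infarcts and 451 to 571 CPM contralaterally. Other inhibitors had larger fold changes. *Cstb*, the cytosolic cystatin B, was expressed at 47.0 to 49.4 CPM in infarcts and at 4.43 to 8.68 CPM contralaterally (log2 fold change 2.99), and *Cst7*, a cystatin of immune cells that inhibits *Ctsc*, had one of 5.23.

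Serpins of the list were upregulated as well, with log2 fold changes of 2.41 for *Serpinb1a*, 3.03 for *Serpinb6a*, 2.67 for *Serpinb9*, 5.88 for *Serpina3n*, and 7.59 for *Serpina3g*. The Serpina3 genes are close paralogs, and reads may have been split or lost between them. *Serpina3n* was expressed at 231, 279.6, and 388 CPM in infarcts and at 4.89 to 5.40 CPM contralaterally. *Serpina3g* was highest in infarct 1, at 52.6, 18.1, and 12.1 CPM, so the pair of paralogs ran in opposite order over the infarcts. *Kng1* and *Fetub*, whose products are plasma proteins of the cystatin superfamily made mainly in liver, had 0 counts contralaterally and 52 to 135 and 35 to 109 counts in infarcts, at least 29.3-fold and 27.8-fold higher. *Ahsg*, another fetuin, had 4, 6, and 2 counts in infarcts and 0 counts contralaterally and did not pass the filter on low counts. Without the filter it was called higher (adjusted p = 0.0130, edgeR), as it was by DESeq2 (adjusted p = 0.0367). *Spock1*, a proteoglycan of neurons reported to inhibit *Ctsl*, was downregulated (log2 fold change -2.74, SE 0.31, adjusted p = 6.14e-05). *Cst6*, with 0, 1, and 1 counts in infarcts and 20, 22, and 8 counts contralaterally, did not pass the filter on low counts and was called lower without the filter and by DESeq2. *Csta1* held at most 2 counts in a library, and *Stfa1*, *Stfa2*, and *Stfa3* had 0 counts in all.

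Genes that sort and activate cathepsins were partly upregulated. Of 11 such genes, 10 were tested, 6 were upregulated, and 1 was downregulated, with a median log2 fold change of 1.85. *Lgmn*, the asparaginyl endopeptidase that cleaves several procathepsins, was expressed at 964, 748, and 749.9 CPM in infarcts and at 83.2, 85.6, and 122 CPM contralaterally (log2 fold change 3.08, SE 0.21, adjusted p = 1.65e-06). The mannose 6-phosphate receptors *M6pr* and *Igf2r* rose by 1.55 and 2.39 on the log2 scale, and *Psap*, whose product binds procathepsin D, by 2.46. *Gnptab* and *Gnptg*, which encode the enzyme that starts the mannose 6-phosphate tag, had log2 fold changes of 0.37 and 0.41 and were not called, while *Nagpa*, which finishes the tag, rose by 2.14. *Sort1*, the alternative sorting receptor sortilin, was the 1 gene that was downregulated, at 468, 486, and 719 CPM in infarcts and 1417 to 1632 CPM contralaterally (log2 fold change -1.43, adjusted p = 1.94e-04). The steps of the sorting route therefore did not move together in these libraries.

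Of 12 genes that regulate lysosomal genes, 6 were upregulated and 1 was downregulated, with a median of 0.84. Members of the TFEB-type factor family, which binds CACGTG-type sites, were among those upregulated, with log2 fold changes of 2.53 for *Tfeb*, 2.51 for *Mitf*, and 1.08 for *Tfe3*. *Tfec*, a myeloid member of that family, held 97, 120, and 93 counts in infarcts and 2, 1, and 0 counts contralaterally. With each contralateral library set at 3 counts, it was 36.4-fold higher in infarcts. *Usf1* and *Usf2*, factors of the list outside that family, were not called. Their log2 fold changes were 0.30 and 0.39 (adjusted p = 0.252 and 0.231, edgeR). *Rragd*, a GTPase of nutrient signaling, was downregulated by 1.47 on the log2 scale, and *Zkscan3*, a repressor of autophagy genes, had a log2 fold change of 0.08 (adjusted p = 0.782). RNA levels of a factor do not give its activity, which was not measured here.

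Of 13 partners and substrates, 12 were tested, 9 were upregulated, and none was downregulated, with a median of 3.14. *Cd74*, the invariant chain that *Ctss* cleaves, was expressed at 1737, 1074, and 825 CPM in infarcts and at 4.81, 3.58, and 7.48 CPM contralaterally, a log2 fold change of 7.86 (SE 0.43, adjusted p = 1.17e-06). The MHC class II genes *H2-Aa* and *H2-Ab1* changed by 7.99 and 8.05, and the peptide exchange genes *H2-DMa* and *H2-DMb1* were also upregulated. *Cd74* and *H2-Aa* were highest in infarct 1, as was *Ctss*. *Grn*, the progranulin gene, whose product is cut into granulins by cathepsins, was upregulated (log2 fold change 3.99, adjusted p = 4.79e-07), and so was *Eln*, the elastin substrate of *Ctss* and *Ctsk* (3.01). *App*, with a log2 fold change of -0.64 (adjusted p = 0.0151), and *Tmem106b*, with -0.35 (adjusted p = 0.152), were not called.

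Lists of other lysosomal genes had lower medians than the family. Of 11 other lysosomal peptidases, 10 were tested and 9 were upregulated, with a median of 2.64. The upregulated genes ran from 1.06 for *Pepd* to 5.37 for *Napsa*, an aspartic protease related to *Ctsd*. *Napsa* held 139, 78, and 86 counts in infarcts and 5, 2, and 1 counts contralaterally, while *Tpp2* was not called (0.09). *Pepd* and *Tpp2* encode cytosolic enzymes, so not all of this list is lysosomal. Of 28 hydrolases of lipids and sugars, 21 were upregulated and 1, *Ids*, was downregulated (-1.87), with a median of 2.34. *Lipa*, the acid lipase that frees cholesterol from its esters, changed most in this list, with 707, 610.4, and 521 CPM in infarcts and 15.7, 14.7, and 19.4 CPM contralaterally (log2 fold change 5.21, SE 0.21, adjusted p = 1.64e-07). *Lipa* alone of the 28 had a larger fold change than the family median of 4.68.

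The V-ATPase, the proton pump whose acid pH cathepsins need, had 2 upregulated genes of 19 tested, where 25.7% of all tested genes were upregulated. Of its 21 genes 19 were tested, and 5 of these 19 were downregulated, a share not far from the 20.9% of all tested genes. The median log2 fold change was -0.40. *Atp6v0d2*, a subunit isoform known from macrophages and osteoclasts, was expressed at 644, 515, and 423 CPM in infarcts and at 0.157, 0.260, and 1.75 CPM contralaterally (log2 fold change 9.73, SE 0.71, adjusted p = 1.92e-05), and *Atp6v0e* was upregulated by 2.04. The downregulated subunits included *Atp6v1g2* (-2.71), an isoform of neurons, and *Atp6v0e2* (-2.11). With scaling by library totals *Atp6v0a1* (-1.06) and *Atp6v1c1* (-1.07) were no longer called and *Atp6v1g1* was called up. All 8 neuronal markers were downregulated beside these subunits, and their part in these values was not tested. Over the 8 lists, 101 of 122 genes were tested, 61 were upregulated, and 9 were downregulated, with a median of 2.07.

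**Figure D5:**
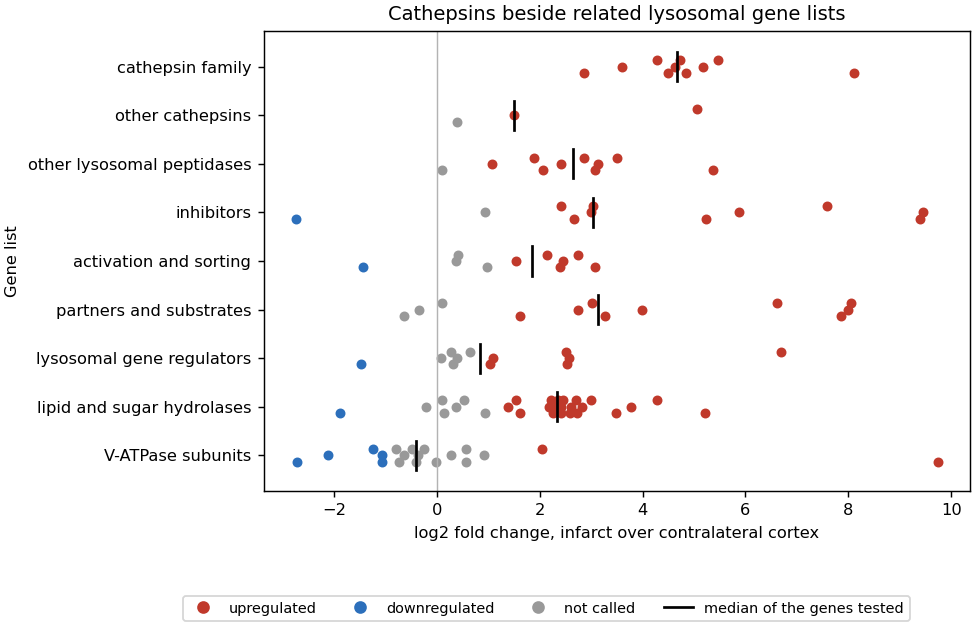
Log2 fold changes of the tested genes in the cathepsin family and 8 related lists, colored by call (red up, blue down, gray not called), with black bars at list medians; fold changes of genes with 3 counts or fewer in every contralateral library are fitted and have no upper limit. The family median, 4.68, lies to the right of those of the other lists, which run from -0.40 for V-ATPase subunits to 3.14 for partners and substrates.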

How the data were processed

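RNA was sequenced from 3 infarcts and 3 contralateral cortices. Per the paper and the submitters' processing notes, the authors made stranded mRNA libraries, demultiplexed reads with bcl2fastq 2.19, trimmed them with Trimmomatic 0.32, aligned them to GRCm38 with STAR 2.5.2b, and deposited raw counts per Ensembl gene made with HTSeq. The version, annotation, and strand setting of HTSeq are not given in the sources used here. Reads that align to several places are not counted, and the 5 tallies per file of reads without a gene were dropped. Between 65.7% and 73.4% of tallied reads fell on genes.

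Of 46078 identifiers, 45229 were matched to GENCODE release M21. Genes kept by filterByExpr were tested in edgeR 4.0.16 (R 4.3.3) with TMM scaling, region as the only term, and robust quasi-likelihood dispersions. The procedure was tested on simulated data. Calls required both an adjusted p below 0.05 and a change above 2-fold. Where no library of a region held more than 3 counts, each was set to 3 counts. This gives a lower bound, for counting error only, where all counts of that region were 0. Each member, each called list gene, the extremes of each list, and every counted inhibitor and cathepsin could be named. The members, lists, and motifs were chosen with earlier results of these data known. Lists are described by counts and medians, with no set test. Exon lengths are those of merged exons, or of 1 CCDS-tagged transcript. Replicates were compared by a chi-square test of their counts, and none agreed within sampling noise. Alternatives were DESeq2 1.42.0, limma 3.58.1 voom, other scalings, filters, and thresholds, a replicate block, and each library left out in turn.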

Additional observations from a re-analysis of the deposited data

How the results depend on the processing

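All 10 cathepsin genes were called higher in infarcts under every alternative run, except that *Ctse* could not be tested with at least 10 counts in every library, which left 9. Over the alternatives the log2 fold change ran from 2.73 to 3.05 for *Ctsa*, from 3.49 to 3.81 for *Ctsb*, and from 5.33 to 5.73 for *Ctsk*. The fitted value of *Ctse* moved most, from 6.02 with limma voom to 8.37, with 8.11 in the fit reported, and the largest adjusted p of any member was 0.00168 (*Ctse*, without contralateral replicate 2, edgeR). The ratio of summed expression ran from 16.6 to 19.3 with 1 library left out and was 20.4 with library totals. Of the related genes, 14 in place of 9 were lower without a fold change threshold. Length scaling moved the infarct shares of several other members by more than 1.5 times, as given with those shares, and that of *Ctsd* by less, from 55.2% to 43.8% with plain counts and to 48.1% per kilobase of a reference transcript in infarcts, and from 56.2% to 39.9% and 49.5% in contralateral cortices. The reference transcript was chosen after seeing the data. With 1 library left out the share ran over 54.3% to 56.7% and 54.8% to 57.9%. Counts limit *Ctse* and *Ctsw* most.

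Deviations of same-numbered libraries from their region means correlated at -0.21, 0.12, and 0.04 across genes, and not every library correlated best with its own number. Deviations around a shared mean constrain each other, so these correlations cannot decide whether same-numbered libraries came from the same mouse. With the replicate number as a block, edgeR called 3945 higher and 3222 lower of 15554 genes, and the 10 members were all called higher.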

Other observations

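Genes known from osteoclasts, the cells in which *Ctsk* is best studied, were measured in part. *Acp5*, the tartrate-resistant acid phosphatase, was expressed at 88.0, 74.8, and 77.5 CPM in infarcts and at 0.0522, 0.0651, and 0.369 CPM in contralateral cortices (log2 fold change 9.13, SE 0.38, adjusted p = 1.64e-07, edgeR). *Nfatc1* and *Tnfrsf11a*, the receptor for RANKL, were upregulated by 3.12 and 2.04 on the log2 scale, and *Dcstamp*, a fusion receptor, by 3.42 from at most 5 counts per contralateral library. The more restricted genes were at or near 0, with at most 2 counts of *Calcr*, the calcitonin receptor, and at most 5 of *Ocstamp* in any library. Of the 6 genes of this list 4 were tested, and all 4 were upregulated. Macrophages also express several of them, and the source of these transcripts was not tested.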
